A study of Mus musculus with 10 samples.

Results

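The messages of 50 secretory pathway genes were followed in renin cells of the mouse kidney. These genes code for the machinery that brings new proteins into the endoplasmic reticulum (ER), trims, glycosylates and folds them there, removes failed products and carries the rest to the Golgi. The genes were taken by symbol from a list of complexes and enzymes, and no measured value entered that step. The list itself was chosen with earlier results of these data known, so it gets no p of its own. Shares of the 50 genes set beside all genes below describe the genes chosen. All 50 were found among the 32648 genes of the expression table, and all 50 were among the 18825 genes that passed the filter on low counts.

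The cells came from adult C57BL/6 mice, 8 to 12 weeks old, that carry the Ren1c-YFP transgene, in which the renin promoter drives a yellow fluorescent protein. In 3 mice (coarctation) the aorta was narrowed between the origins of the right and left renal arteries, and 2 mice (sham) had the operation without exposure or narrowing of the aorta. After 72 h, 1000 living YFP-positive cells were sorted from the cortex of each kidney, which gave 3 left and 3 right coarctation libraries and 2 left and 2 right sham libraries, all with the transgene. A sort on a reporter driven by the renin promoter takes cells by the activity of that promoter, and each library is a bulk of sorted cells, so fewer cells of a type and less RNA per cell cannot be told apart.

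Renin is a secreted protein. It is made on ER-bound ribosomes with a signal peptide, enters the ER through a membrane channel, receives N-linked sugars, folds with disulfide bonds and leaves in COPII-coated carriers before it is stored in granules of the juxtaglomerular cell. The signal recognition particle (SRP) directs the ribosome to the membrane, the Sec61 channel and its partners form the translocon, the signal peptidase cuts the signal peptide, and the oligosaccharyl transferase attaches the sugar chain. Isomerases and cochaperones help folding, derlins help to pull failed proteins back to the cytosol, and KDEL receptors return ER residents from the Golgi.

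Many genes of this pathway are known targets of the unfolded protein response. Its ER stress element is written CCAAT, 9 bases of any kind, then CCACG; the CCAAT part is bound by NF-Y and the CCACG part by ATF6 or XBP1. RefSeq windows from 250 bases before to 50 bases after the start (GRCm38.p6) matched 39 of the 50 genes, in 47 windows. On either strand, the element was found exactly in 3 of the 39 genes (7.69%), against 0.164% of the tested genes with a window and 0.137% of all genes with one. These 3 sites are shown because Derl3 and Pdia6 are described in the coarctation kidneys and Dnajc3 in the left kidneys. The fixed bases are in capitals, read 5′ to 3′ on the strand that carries the element:

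Derl3, chr10:75893242-75893260, minus strand: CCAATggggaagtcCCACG

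Dnajc3, chr14:118937827-118937845, plus strand: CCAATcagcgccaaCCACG

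Pdia6, chr12:17266491-17266509, plus strand: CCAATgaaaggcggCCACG

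The 250 bases before the start of Derl3 (chr10:75893148-75893397, plus strand) place the site (here seen from its other strand, in capitals) at bases -156 to -138 from the start. Derl3 is shown at this length because it had the largest difference between kidneys of the 50 genes.

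Derl3 upstream region: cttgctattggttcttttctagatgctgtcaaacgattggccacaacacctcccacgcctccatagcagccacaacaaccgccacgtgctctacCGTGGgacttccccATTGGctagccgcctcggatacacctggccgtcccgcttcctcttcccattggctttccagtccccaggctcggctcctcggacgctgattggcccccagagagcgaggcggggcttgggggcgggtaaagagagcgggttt

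With 1 mismatch allowed in the 10 fixed bases, the element was in 12 of the 39 genes (30.8%), against 2.15% of tested genes. Among the added 9 genes, Fkbp2, Selenok and Pdia3 are printed because they are among the 12 genes given in full below, with the 10 fixed positions in capitals, the mismatch included:

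Fkbp2, chr19:6980092-6980110, plus strand: CCAAGccccgccccCCACG

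Selenok, chr14:29968377-29968395, plus strand: CCAATgggctcgacCCACC

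Pdia3, chr2:121413873-121413891, plus strand: CCAATcggcggctgCCACA

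A related element, ATTGG, 1 base, then CCACG, was found in Krtcap2 alone (2.56% of 39 genes, 0.0596% of tested genes), at chr3:89246490-89246500 on the plus strand, and overlaps the CCACG count given next. The element TGACGTGG was in Kdelr3 and Sec24d (5.13%, against 0.946% of tested genes). The bare CCACG was in 74.4% of the genes and in 45.9% of tested genes. The list holds known targets of this response, so the shares describe the genes chosen. A match is a stretch of letters, and no binding was measured here.

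Levels are given in TPM, a share of all transcripts in a library corrected for transcript length, and can be set side by side between genes. Over the 10 libraries the mean level ran from 2.40 TPM for Derl3, a derlin of ER-associated degradation, to 1305 TPM for Dad1, a small subunit of the oligosaccharyl transferase. Selenok, a selenoprotein of the ER membrane that binds derlins, followed Dad1 at 980 TPM, and the signal peptidase subunit Spcs1 and the prolyl isomerase Fkbp2 stood near it at 737 and 736 TPM. The pore-forming channel subunit Sec61a1 was at 14.6 TPM, far under its small partners Sec61b (492 TPM) and Sec61g (208 TPM). Their mean lengths were 1624 bases for Sec61a1, 278 for Sec61b and 394 for Sec61g. Of the 31-base words, 42% for Sec61b and 19.5% for Sec61g also occur in other genes. The part of length and shared sequence in these levels was not tested. The 2 catalytic subunits of the transferase, Stt3a and Stt3b, were at 25.3 and 27.8 TPM.

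The question of the design that touches these genes most directly is whether renin cells of the right and left kidney differ after coarctation. In the coarctation mice 47 of the 50 genes had a negative log2 change, right minus left, where 48.3% of tested genes did. The median was -0.39 against 0.02 over all 18825 genes. No gene of the 50, and no gene at all (0%), passed an adjusted p of 0.05 in edgeR's quasi-likelihood test. That fit has 4 groups and does not pair the kidneys of a mouse, and the SEs below are from it. The smallest adjusted p in this fit was 0.59 for the 50 genes and 0.125 for all genes. At an unadjusted p under 0.05, 11 of the 50 genes were lower in the right kidney (background 2.25% of tested genes) and 0 were higher (background 2.37%). With the mouse as a block, 5 genes passed (0.0266% of those tested) and 0 of them were among the 50. The block gave a smaller SE for each of the 12 genes given in full below. It was 0.14 against 0.35 for Pdia3 and 0.31 against 0.34 for Derl1. DESeq2 called 76 genes (0.404%), of which Derl3 and Fkbp11 were members of the list.

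Within mice, 30 of the 50 genes were lower in the right kidney in 3 of 3 coarctation mice on the log2 CPM scale with TMM factors, where 13.5% of tested genes were. None was higher in 3 of 3 mice, where 14.5% of tested genes were. For 22 of the 50 genes all 3 right kidneys lay under all 3 left kidneys on this scale, against 5.39% of tested genes. With library size alone that held for 15 genes (background 3.11%), and on log2(TPM + 1) for 13 (background 2.97%). The median of the 50 changes was -0.49, -0.47 and -0.38 in coarctation mice 1, 2 and 3, and 0.07 and 0.02 in sham mice 1 and 2. The TMM factors were lower in the left than in the right kidney of each coarctation mouse. With library size alone 23 of the 50 genes were lower in 3 of 3 mice (all genes 8.28%), and on log2(TPM + 1) 22 were (all genes 8.15%). These 22 genes were lower in 3 of 3 mice under all 4 scalings that were tried. For all genes that share was not counted and can be at most 8.15%. Mouse 3 moved most, to medians of -0.11 with library size alone and -0.15 on log2(TPM + 1). Library size alone placed the median of all genes at 0.17 and that of the 50 at -0.24, a distance of -0.41 that was the same with TMM factors. Leaving out coarctation mouse 2 brought the median of the 50 to -0.26, as did leaving out its left kidney.

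**Figure D1:**
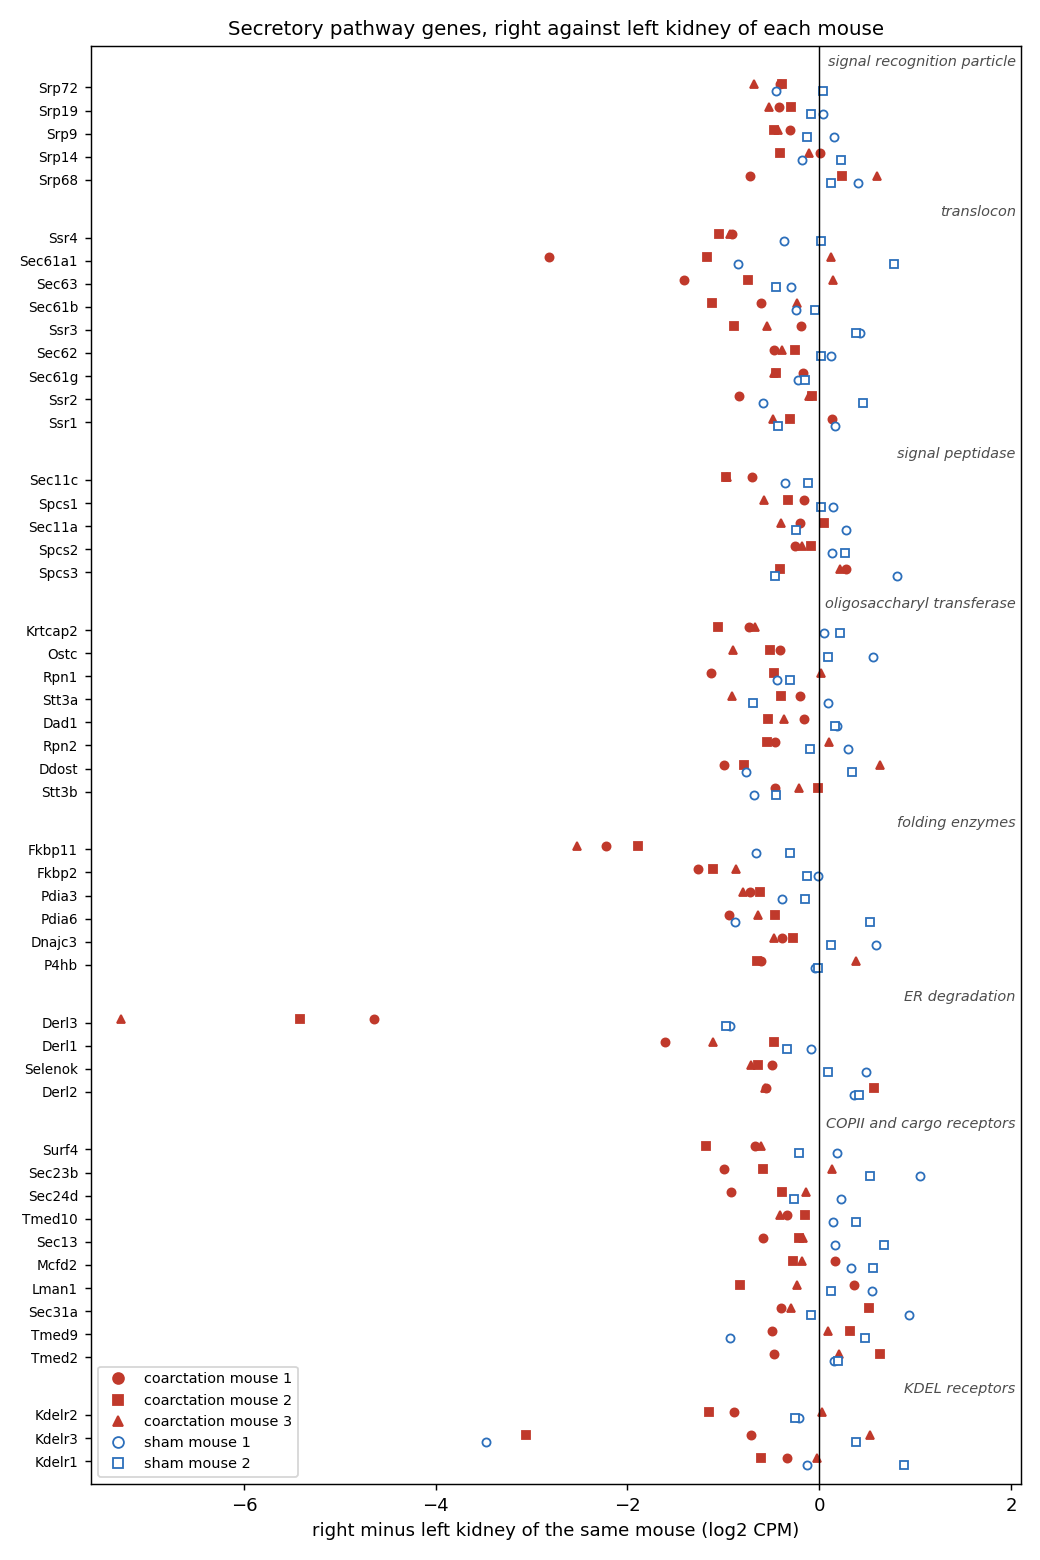
Right minus left kidney of the same mouse for each of the 50 genes (x axis, log2 CPM with TMM factors), grouped by role, with 1 symbol per mouse. Filled red symbols are the 3 coarctation mice and open blue symbols the 2 sham mice; for 30 genes all 3 red symbols lie left of 0, and Derl3 reaches -7.28 in coarctation mouse 3.

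The 6 folding enzymes had a median of -0.71, all 6 with a negative change. Fkbp11, a membrane-anchored prolyl isomerase of the ER (chr15:98724366-98728198, GRCm38), measured 35.0, 44.6 and 34.4 TPM in the left kidneys of coarctation mice 1, 2 and 3 and 7.91, 13.3 and 6.88 TPM in their right kidneys. Its left sham kidneys had 30.1 and 12.9 TPM and its right sham kidneys 20.1 and 10.3 TPM. The coarctation kidneys therefore did not overlap by side, and the sham kidneys did. The log2 change in coarctation was -2.19 (SE 0.49), a 4.57-fold lower level in the right kidney, lower in 3 of 3 mice, with an adjusted p of 0.59 in edgeR and 0.000822 in DESeq2.

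Fkbp2, a soluble prolyl isomerase of the ER lumen (chr19:6977741-6980501), had 1044, 1126 and 700 TPM in the left coarctation kidneys and 467, 579 and 450 TPM in the right. The sham kidneys had 773 and 738 TPM on the left and 814 and 673 TPM on the right. Every right coarctation kidney lay under every other library. The log2 change was -1.10 (SE 0.26, adjusted p = 0.722, edgeR), and the adjusted p over all alternatives ran from 0.0546 to 1 (edgeR, limma and DESeq2). Pdia3, a disulfide isomerase that works on glycoproteins (chr2:121413775-121438687), had 99.7, 141 and 117 TPM in the left coarctation kidneys against 64.6, 102 and 79.0 TPM in the right. In sham it had 66.0 and 123 TPM on the left against 53.3 and 110 TPM on the right. Pdia3 was lower on the right in all 5 mice, and in TPM left and right values overlapped between mice. On log2 CPM with TMM factors all 3 right coarctation kidneys lay under all 3 left. Its exons overlap those of Catsper2, and those of Krtcap2 overlap Trim46, so some reads of these genes may belong to their neighbours. The log2 change in coarctation was -0.71 (SE 0.35). The remaining folding genes ran from -0.70 for the disulfide isomerase Pdia6 through -0.37 for the cochaperone Dnajc3 to -0.28 for P4hb, the disulfide isomerase that is also a prolyl hydroxylase subunit.

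The 4 genes of ER degradation all had negative changes, with a median of -0.81. Derl3 (chr10:75893413-75895941) measured 1.84, 11.7 and 8.15 TPM in the left coarctation kidneys and 0.0293, 0.229 and 0 TPM in the right. The estimated counts behind these values were 56.5, 404.8 and 274.6 on the left and 1, 8.7 and 0 on the right, and a count of 0 allows up to 3 counts by counting error alone. The sham kidneys had 1.25 and 0.117 TPM on the left and 0.657 and 0.0271 TPM on the right. Derl3 was thus highest in the left coarctation kidneys and near the detection limit in the right ones, with sham mouse 2 also low on both sides. Its log2 change of -6.44 (SE 1.51) was lower in 3 of 3 mice, with an adjusted p of 0.722 in edgeR with the low-count filter, 3.89e-05 in edgeR without that filter and 0.000164 in DESeq2.

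Derl1, a more widely expressed derlin (chr15:57869502-57892448), had 10.5, 11.5 and 12.5 TPM in the left coarctation kidneys against 3.63, 9.22 and 6.75 TPM in the right. Its sham kidneys had 10.3 and 11.9 TPM on the left and 10.3 and 9.39 TPM on the right. The 3 right coarctation kidneys were the lowest of the 10 libraries. The log2 change was -1.02 (SE 0.34). Selenok (chr14:29968308-29975662) had 1139, 1229 and 951 TPM on the left and 867, 875 and 682 TPM on the right in coarctation, against 861 and 925 TPM on the left and 1284 and 985 TPM on the right in sham. The sides thus stood in opposite order in the coarctation and sham mice. The log2 change in coarctation was -0.60 (SE 0.24). Derl2 had -0.26 and was lower in 2 of 3 mice.

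All 9 translocon genes had negative changes, with a median of -0.50. Ssr4, a subunit of the translocon-associated protein complex that sits beside the channel (chrX:73787028-73790830), had 397, 489 and 413 TPM in the left coarctation kidneys and 226, 264 and 255 TPM in the right. Its sham kidneys had 308 and 329 TPM on the left and 253 and 333 TPM on the right. All 3 left coarctation kidneys were above every other library. The log2 change was -0.96 (SE 0.25, adjusted p = 0.921, edgeR). Sec61b had 515, 672 and 501 TPM on the left and 361, 343 and 503 TPM on the right in coarctation, with 489 and 558 TPM on the left and 439 and 540 TPM on the right in sham. In coarctation mouse 3 its TPM was near equal on both sides while its TMM-scaled change was -0.23, and the log2 change over the mice was -0.63 (SE 0.28). Sec61a1 ranged from -2.82 in coarctation mouse 1 to 0.12 in mouse 3, the widest spread of the translocon genes in coarctation.

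Part of the sequence of 5 genes, over 15% of their 31-base words, is shared with other genes: 42% of the 31-base words of Sec61b, 33.3% of Tmed10, 28.6% of Tmed2, 19.5% of Sec61g and 16.2% of Srp9 occur elsewhere, so their counts are uncertain. Selenok (14.7%), Sec13 (9.22%) and Derl1 (9.09%) came next, and their counts could be affected in part. Without the 5 genes over 15%, 26 of 45 genes were lower in 3 of 3 coarctation mice, against 13.5% of all tested genes.

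Of the 8 oligosaccharyl transferase genes all had negative changes, with a median of -0.41. Krtcap2, an accessory subunit also called keratinocyte-associated protein (chr3:89245966-89249906), had 370, 394 and 381 TPM in the left coarctation kidneys against 238, 210 and 281 TPM in the right. In sham it had 266 and 295 TPM on the left against 292 and 341 TPM on the right. All 3 left coarctation kidneys were above the rest. The log2 change was -0.80 (SE 0.27). Ostc (chr3:130695912-130709444), which links the transferase to the translocon, had 240, 258 and 231 TPM on the left and 193, 202 and 145 TPM on the right in coarctation, with 167 and 194 TPM on the left and 261 and 207 TPM on the right in sham. Its log2 change in coarctation was -0.59 (SE 0.26). Dad1 had 1398, 1515 and 1351 TPM on the left against 1337, 1167 and 1234 TPM on the right in coarctation, and 1154 and 1184 TPM on the left against 1390 and 1319 TPM on the right in sham. The side order of Ostc and Dad1 was thus opposite in each sham mouse to that in each coarctation mouse. The catalytic subunits Stt3a and Stt3b had -0.48 and -0.22.

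In the signal peptidase 4 of 5 genes had negative changes, with a median of -0.19. Sec11c, a catalytic subunit, had 330, 438 and 283 TPM in the left coarctation kidneys and 216, 248 and 171 TPM in the right. Its sham kidneys had 290 and 303 TPM on the left and 240 and 278 TPM on the right. Each right kidney was under its left partner in all 5 mice, and the log2 change in coarctation was -0.87 (SE 0.27, adjusted p = 0.962, edgeR). The other catalytic subunit, Sec11a, had -0.19. The SRP genes had a median of -0.40 with 4 of 5 negative, from -0.48 for Srp72 to 0.15 for Srp68, and these 2 proteins bind each other in the particle.

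The genes of export from the ER had a median of -0.20 over 10 COPII and cargo receptor genes, 9 of them negative, near that of the signal peptidase. Surf4, a cargo receptor (chr2:26920040-26933928, with exons that overlap Surf2), had 17.2, 31.3 and 24.0 TPM in the left coarctation kidneys and 11.6, 15.3 and 18.4 TPM in the right, against 14.9 and 27.5 TPM on the left and 17.9 and 23.6 TPM on the right in sham. In TPM left and right values overlapped between mice, though each right kidney was under its partner in coarctation. On log2 CPM with TMM factors all 3 right coarctation kidneys lay under all 3 left. The log2 change was -0.82 (SE 0.34). The coat proteins Sec31a and Sec13 had -0.06 and -0.29, and the p24 family members Tmed9 and Tmed2 had -0.01 and 0.21. The 3 KDEL receptor genes had -0.62 (Kdelr2 and Kdelr3) and -0.34 (Kdelr1). Kdelr3 was uneven between mice, with -3.06 in coarctation mouse 2, 0.53 in coarctation mouse 3 and -3.48 in sham mouse 1.

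**Figure D2:**
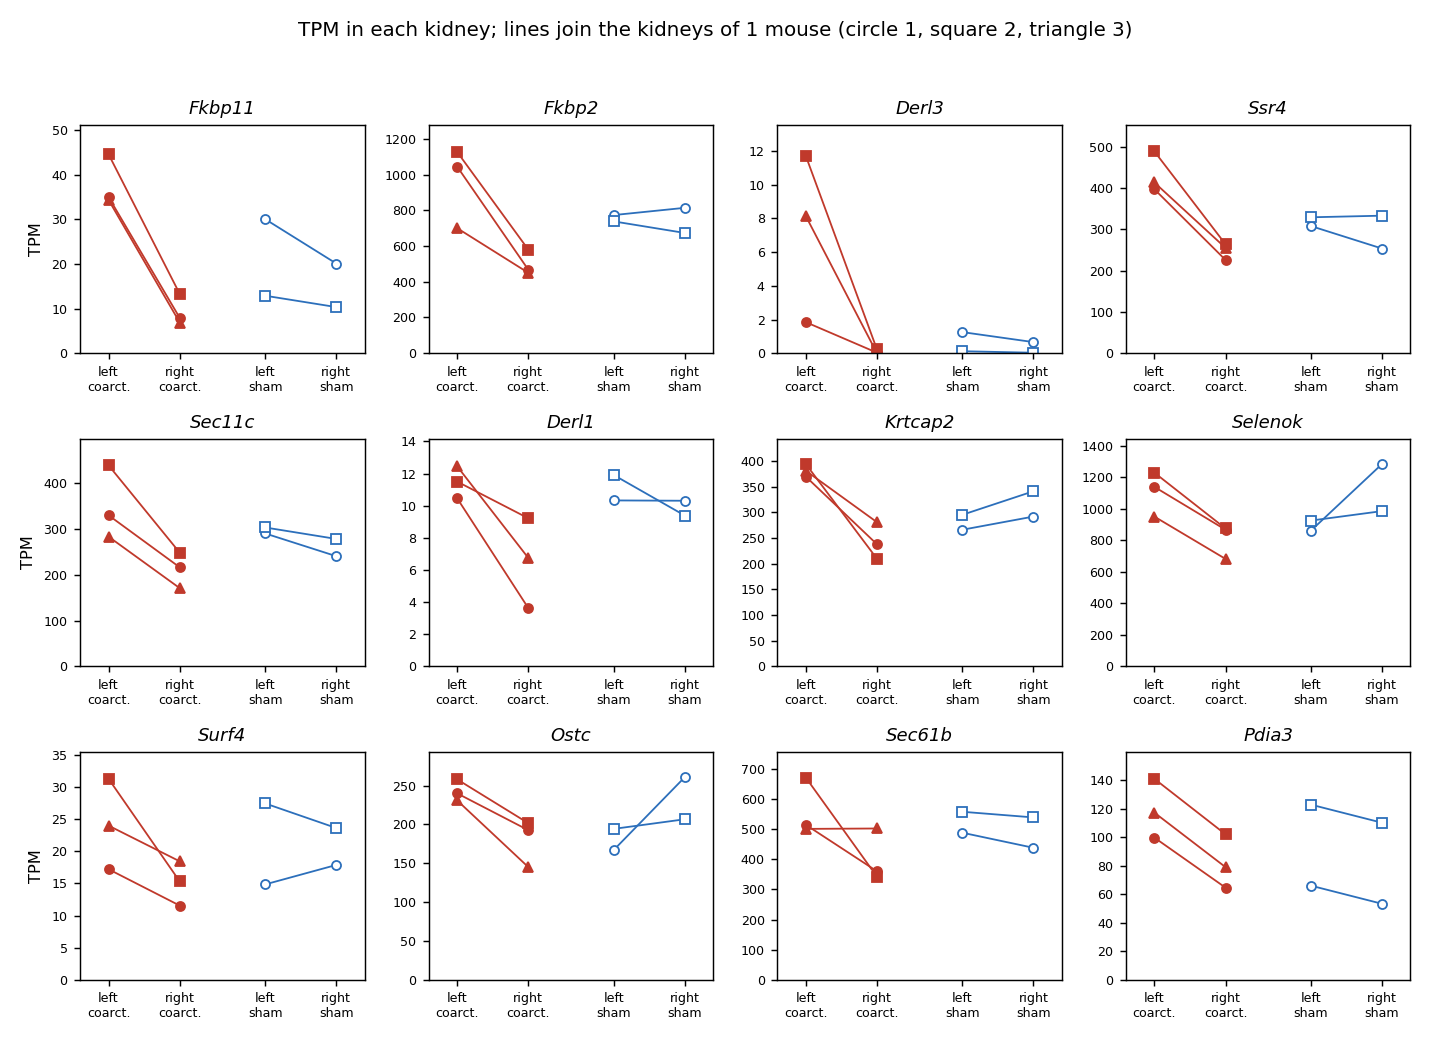
TPM (y axis, from 0) of the 12 genes with the smallest unadjusted p in coarctation right minus left, in each kidney. Lines join the kidneys of 1 mouse, red for coarctation and blue for sham; for Fkbp11 the 3 red left points lie at 34.4 to 44.6 TPM and the 3 red right points at 6.88 to 13.3 TPM.

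Summed over the 50 genes, the right kidney held 0.778, 0.754 and 0.846 of the TPM of the left kidney in coarctation mice 1, 2 and 3, and 1.11 and 1.05 in the sham mice. By role, the folding enzymes had ratios of 0.482, 0.56 and 0.697 in coarctation, next to 1 and 0.945 in sham. The KDEL receptors were uneven, with 0.682, 0.499 and 1.31 in coarctation and 0.749 and 1.24 in sham. ER degradation had 0.755, 0.733 and 0.714 in coarctation, a sum that is mostly Selenok, and 1.48 and 1.07 in sham. The COPII and cargo receptor sum went both ways in coarctation, with 0.817, 1.16 and 1.08. The message of Ren1, which codes for renin, had ratios of 0.186, 0.246 and 0.294 in coarctation and 0.713 and 1.11 in sham, so the summed pathway differed by side less than renin did in each coarctation mouse. The reporter message EYFP had ratios of 0.147, 0.182 and 0.445 in coarctation and 0.93 and 1.36 in sham. Since TPM shares 1 total per library, the Ren1 share enters every other gene's TPM, and a larger share lowers the others. In coarctation Ren1 had 29290 to 48620 TPM on the left and 5451 to 11980 TPM on the right.

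**Figure D3:**
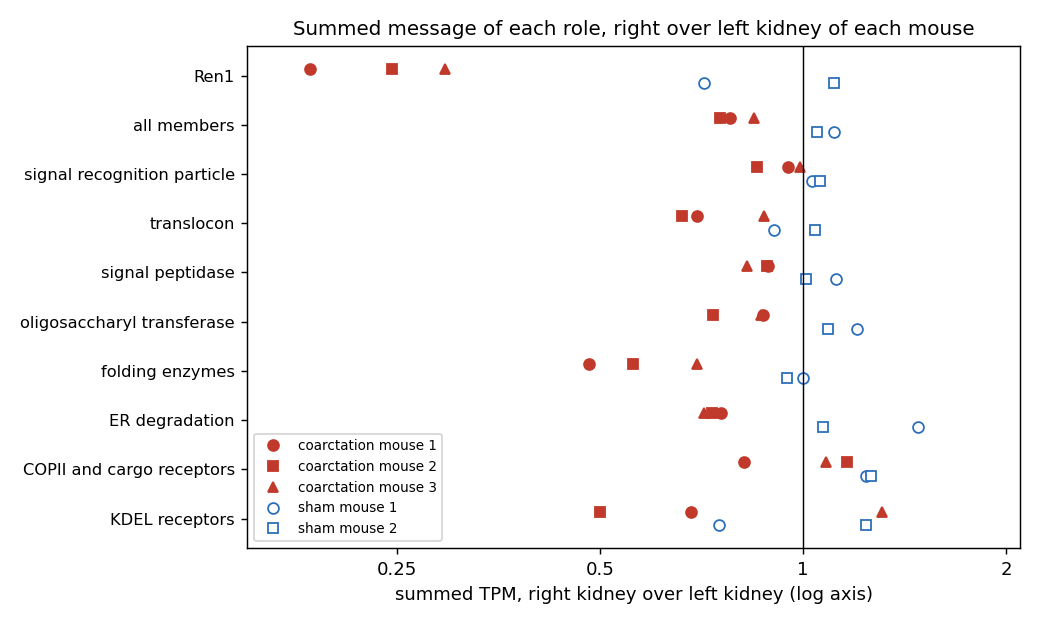
Ratio of summed TPM, right over left kidney of the same mouse (x axis, log scale), for Ren1, all 50 genes and each role. Filled red symbols are coarctation mice and open blue symbols sham mice; the 3 coarctation ratios of the folding enzymes lie at 0.482 to 0.697 and those of Ren1 at 0.186 to 0.294.

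In the sham mice the same genes showed no common side. The log2 change, right minus left, was negative for 21 of 50 genes, where it was for 48.4% of tested genes. The median was 0.02, equal at this rounding to that of all genes. In 2 of 2 mice, 13 genes were lower (26% of the 50, background 24.3%) and 17 were higher (34%, background 24.5%), and 0 passed the adjusted test (0% of tested genes, edgeR). By role, 9 of the 10 COPII and cargo receptor genes were positive, with a median of 0.29. Of these 10, 6 were higher in 2 of 2 mice and 0 lower. At an unadjusted p under 0.05, 0 of the 50 were lower (background 1.1%) and 0 higher (background 0.845%). The median of the 50 ran from -0.24 to 0.29 when single sham libraries were left out, so no side can be named at 2 mice. The 4 genes with the smallest p were Sec23b, Stt3b, Ssr3 and Sec31a. Sec23b, a COPII coat subunit, had 6.77 and 8.60 TPM in the left and 14.8 and 12.4 TPM in the right sham kidneys (log2 change 0.77, SE 0.52), with no overlap. Stt3b had 25.3 and 39.0 TPM on the left and 16.7 and 28.5 TPM on the right (-0.53, SE 0.41), and its change ran from -1.15 to -0.0859 when single sham libraries were left out. In coarctation it had 23.4, 29.2 and 32.5 TPM on the left and 18.2, 32.1 and 32.9 TPM on the right. Ssr3, another subunit beside the channel, had 16.5 and 19.3 TPM on the left and 23.5 and 25.1 TPM on the right (0.40, SE 0.35), also with no overlap. Sec31a had 35.7 and 46.9 TPM on the left and 72.8 and 44.0 TPM on the right (0.43, SE 0.38), higher on the right in sham mouse 1 alone. In coarctation it had 39.8, 35.8 and 41.1 TPM on the left and 32.3, 56.9 and 39.4 TPM on the right.

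The side change in coarctation was then set against that in sham. The difference of the 2 changes was negative for 47 of 50 genes, where it was for 49.2% of tested genes. Its median was -0.47 against 0.02 for all genes, and 0 genes passed the adjusted test (0% of those tested). At an unadjusted p under 0.05 6 of the 50 genes were negative (background 1.37% of tested genes) and 0 were positive (background 1.68%). The 4 with the smallest p were Derl3 (-5.36, SE 2.07), Fkbp2 (-1.03, SE 0.40), Selenok (-0.89, SE 0.39) and Ostc (-0.90, SE 0.41), each with an adjusted p of 1 in edgeR. The Derl3 difference was -2.17 without the right and -7.73 without the left kidney of sham mouse 1. On the right, 11 genes were lower in 3 of 3 coarctation mice and higher in 2 of 2 sham mice, against 3.24% of tested genes: Sec62, Ssr3, Spcs1, Spcs2, Dad1, Ostc, Krtcap2, Dnajc3, Selenok, Sec13 and Tmed10. The median of the 50 differences depended on the few sham libraries. It was -0.22 without the right and -0.76 without the left kidney of sham mouse 2, and -0.28 without the left and -0.78 without the right kidney of sham mouse 1.

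The coarctation left kidneys were compared with the sham left kidneys. This comparison uses the same left coarctation libraries as the side comparison, so the values below are given beside it and do not add to it. The log2 change, coarctation minus sham, was positive for 47 of 50 genes, while 51.2% of tested genes were negative. The median was 0.38 against -0.02 for all genes. All 3 coarctation values lay above both sham values for 25 genes (background 9.73%), and all 3 lay below for 0 (background 12%). At an unadjusted p under 0.05, 6 genes were higher (background 1.84%) and 0 lower (background 2.91%), and 0 passed the adjusted test (0% of tested genes, edgeR). On log2(TPM + 1) 13 genes lay wholly above (background 4.87%) and 1 wholly below (background 17.2%). With library size alone the median of the 50 was 0.17 and that of all genes -0.27, and 16 genes were negative (all genes 65.2%). Without sham mouse 2 the median of the 50 was 0.66.

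Ssr3 had the smallest p of the 50 in the left kidneys, with 25.6, 29.0 and 28.2 TPM in coarctation against 16.5 and 19.3 TPM in sham (0.88, SE 0.33, adjusted p = 0.912, edgeR), and 24.0, 17.4 and 22.6 TPM in the right coarctation kidneys. Dnajc3, a cochaperone of the ER lumen that also restrains the kinase PERK, had 17.4, 24.4 and 22.5 TPM against 9.76 and 17.5 TPM (0.88, SE 0.35), where coarctation mouse 1 and sham mouse 2 had nearly the same level. Its right kidneys had 14.3, 22.5 and 19.1 TPM in coarctation and 15.6 and 18.9 TPM in sham. Ssr4 had 397, 489 and 413 TPM against 308 and 329 TPM (0.69, SE 0.29). Derl3 had 1.84, 11.7 and 8.15 TPM against 1.25 and 0.117 TPM (3.66, SE 1.55). By role, 5 of 6 folding enzymes, 4 of 5 signal peptidase and 4 of 5 SRP genes lay wholly above the sham left kidneys on the TMM scale (background 9.73%). So did 4 of 9 translocon, 3 of 8 transferase, 2 of 4 degradation, 2 of 3 KDEL receptor and 1 of 10 COPII and cargo receptor genes. The 13 genes wholly above on log2(TPM + 1) were not counted by role.

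In the right kidneys 31 of 50 genes had a negative log2 change, coarctation minus sham, where 52.7% of tested genes did. The median was -0.10 against -0.05 for all genes. Wholly below sham lay 3 genes (background 9.18%) and 1 wholly above (background 7.2%), and 0 passed the adjusted test (0% of tested genes, edgeR). At an unadjusted p under 0.05, 0 were lower (background 1.92%) and 0 higher (background 1.91%). These counts moved with the scaling: 11 genes lay wholly below sham with library size alone (background 10.6%) and 9 on log2(TPM + 1) (background 11%), with 0 wholly above in both. With library size alone the median of the 50 was -0.23, with 38 genes negative (all genes 60.6%), and that of all genes was -0.18. With TMM factors, the median turned to 0.17 without sham mouse 2, as it did without the right kidney of that mouse. Sec23b had the smallest p, with 5.81, 4.59 and 8.57 TPM in coarctation against 14.8 and 12.4 TPM in sham (-0.95, SE 0.47), and 10.9, 6.21 and 6.65 TPM in the left coarctation kidneys. Next by p were Fkbp2 (-0.44, SE 0.28), Derl1 (-0.50, SE 0.37) and Sec11a. Sec11a had the opposite sign, with 271, 288 and 230 TPM against 253 and 202 TPM (0.36, SE 0.29). Its left kidneys had 292, 250 and 259 TPM in coarctation and 197 and 240 TPM in sham.

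**Figure D4:**
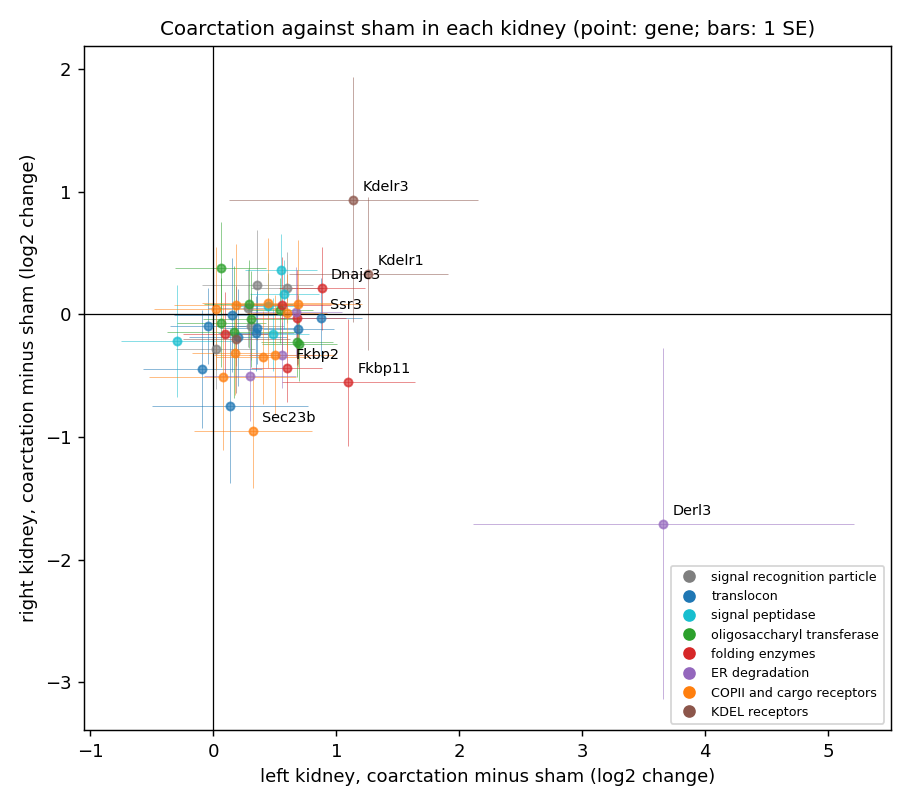
Log2 change, coarctation minus sham, in the left kidney (x axis) and in the right kidney (y axis) for each of the 50 genes, with bars of 1 SE from edgeR and colour by role. The points spread to the right of 0 on the x axis (median 0.38) and around 0 on the y axis (median -0.10), and Derl3 stands at 3.66 and -1.71.

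Among the 50 genes the side change in coarctation was set beside level and length. Spearman's rho over the 50 genes was 0.0396 with mean level and 0.184 with transcript length, next to -0.205 and 0.0356 over all tested genes. Genes share the same libraries, and these are descriptions. The background differed with the level, and 44 of the 50 genes were in the highest of 4 equal classes of tested genes by mean TPM, in which 21.5% of genes were lower in 3 of 3 coarctation mice, and 28 of the 44 were. By transcript length, from the shortest to the longest of 4 such classes, 19 of 22, 2 of 12, 4 of 7 and 5 of 9 members were, where 17.1%, 11.8%, 11.8% and 13.3% of tested genes were. The 12 genes with the ER stress element, exact or with 1 mismatch, had a median change of -0.36, against -0.40 for the 27 genes with a window that lacks it. In the left kidneys, coarctation minus sham, these medians were 0.58 and 0.36. The 11 genes with no window had -0.41 and 0.30. These differences were not tested.

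Other genes of the pathway, 124 found of 128 listed, had a median of -0.22 in coarctation, right minus left. Of these, 83 were negative and 41 positive, where 48.3% of tested genes were negative. In 3 of 3 mice 37 (29.8%) were lower (background 13.5%), and 0 passed the adjusted test. By unadjusted p, those named from each group were as follows. In targeting, Srpr, the receptor for the SRP, had 60.2 ± 12.7 TPM on the left and 33.6 ± 2.01 TPM on the right (SD, n = 3 each; log2 change -1.002). In degradation, Selenos, a selenoprotein that recruits the p97 ATPase, had 271 ± 11.3 TPM on the left and 166 ± 29.7 TPM on the right (-0.88), and the ubiquitin-conjugating enzyme Ube2g2 had -1.39. Among traffic genes the tether Uso1 had -1.15, the COPII scaffold Sec16a -1.22 and the COPI subunit Copa -0.72. Among folding enzymes the disulfide isomerase Pdia4 had 17.7 ± 1.40 TPM on the left and 9.82 ± 2.99 TPM on the right. In N-glycosylation the glucosyltransferase Alg6 went the other way, with 4.49 ± 1.38 TPM on the left and 12.1 ± 5.07 TPM on the right (1.19).

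The libraries held 20029817 to 32006229 estimated counts. Both kidneys of sham mouse 1 stood apart from the other libraries on the first principal component (22.7% of variance) and both kidneys of coarctation mouse 1 on the second (15%). Ren1 was at 5451 to 48620 TPM over the 10 libraries. Markers of other kidney cells were also present. The 11 intercalated and collecting duct markers summed to 19.5 to 91.3 TPM in the left and 95.9 to 806 TPM in the right coarctation kidneys, and to 224 to 246 and 85.9 to 179 TPM in the left and right sham kidneys. Atp6v1g3 alone was 654 of the 806 TPM, in the right kidney of coarctation mouse 1. Aqp2 was lower on the right in coarctation mouse 2 (29.1 against 7.08 TPM) and higher in mice 1 and 3. The 12 leukocyte markers summed to 68.9 to 487 TPM in the left and 315 to 948 TPM in the right coarctation kidneys. In sham they came to 135.4 to 446 TPM on the left and 125 to 352 TPM on the right. Their right over left ratio was 0.869 in coarctation mouse 2 and above 1 in the other coarctation mice. In the left kidney of coarctation mouse 2, Lyz2 alone was 228 of the 487 TPM. Cd74, H2-Aa and H2-Ab1 were higher on the right in each coarctation mouse, and no other leukocyte marker was. The 12 proximal tubule markers summed to 1564 to 10460 TPM on the left and 2124 to 4729 TPM on the right in coarctation. In sham they came to 926.5 to 5484 and 1171 to 3944 TPM. Kap alone was 9094 of the 10460 TPM, in the left kidney of coarctation mouse 3. The part of these other cells in the changes of the 50 genes was not tested. Fkbp11 and Derl3 are also high in plasma cells, whose 12 markers were summed for that reason. These markers came to 52.2 to 78.4 TPM in the left and 29.9 to 70.8 TPM in the right coarctation kidneys, with 61.9 to 93.2 and 58.2 to 111 TPM in sham. Most of that was Sdc1, which epithelia also express (21.8 to 109 TPM), while Jchain stayed between 0.101 and 0.763 TPM in all 10 libraries. Tnfrsf17 was at 0 in 5 of them and reached 2.98 TPM in the right kidney of coarctation mouse 2. Igkc reached 6.69 TPM in the coarctation kidneys and 0.109 TPM in sham, highest in the right kidney of coarctation mouse 1 and at 0 in the right kidney of mouse 3. Mzb1 reached 3.26 TPM, in a sham kidney, and Iglc2 3.28 TPM, in the left kidney of coarctation mouse 3. Prdm1, at 0 to 0.291 TPM, was lower on the right in 3 of 3 coarctation and 2 of 2 sham mice, as Fkbp11 and Derl3 were. Ighg2b, at 0.0474 to 0.249 TPM in coarctation, was higher on the right in each of those mice. The part of plasma cells in the values of Fkbp11 and Derl3 was not tested.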

How the data were processed

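RNA was sequenced from 1000 sorted cells per kidney after amplification with the SMART-Seq v4 kit, per the labels' protocols. The authors deposited 1 table with TPM, estimated counts scaled by transcript length and library size, and effective gene length in bases, per the file headers. Reads were checked with FastQC and the build was GRCm38 (mm10), per the submitters' processing notes. Which aligner and quantifier were run is not given in the sources used here.

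Estimated counts, deposited by the authors as numbers that need not be whole, were rounded. All 10 libraries (20029817 to 32006229 counts) entered 1 edgeR 4.0.16 quasi-likelihood fit (R 4.3.3) with 4 groups, TMM factors and the default low-count filter, with Benjamini-Hochberg adjustment over 18825 genes and a threshold of 0.05. The common dispersion was 0.45 with 6 residual degrees of freedom. SEs of the edgeR fits were back-calculated, as the size of the log2 change over the square root of the test's F. The TPM values deposited by the authors were used for levels. Changes within a mouse are differences of log2 CPM (prior count 2).

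The 2 kidneys with the same number come from 1 mouse. Their deviations from the group means correlated at 0.127, 0.0496 and 0.0307 in coarctation mice 1 to 3. Between kidneys of different coarctation mice the values were -0.0819 to 0.0351. The sham value, 0.398, is the same for both mice because deviations of 2 mice mirror each other. The mouse block is given where it changed a count, for the SEs of Pdia3 and Derl1 and for the values that follow. In the block fit (edgeR) the adjusted p was 0.0734 for Fkbp2, 0.162 for Ssr4 and 0.207 for Sec11c. Without the block it was 0.722, 0.921 and 0.962. Each of the 12 genes given in full had a lower adjusted p with the block. All other SEs are from the fit that does not pair the kidneys. Separate mice are biological replicates per the labels.

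Alternatives were RLE factors, no filter, DESeq2 1.42.0, limma 3.58.1 (voom, without and with the mouse as a random effect, correlation 0.317), the mouse block, log2(TPM + 1), and leaving out each mouse. Library size alone and leaving out single libraries were added after seeing the data, as were the leaving out of genes with shared sequence and the mismatch search. Gene positions are from GENCODE (GRCm38).

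Every gene of the list could be named. Values in every library are given for the 12 genes with the smallest p in coarctation right minus left, for the 4 with the smallest p in each other comparison and for the lowest and highest by level, and up to 3 genes of each further pathway list are named. The genes, lists and markers were chosen with earlier results of these data known. The code of the fits was also run on simulated counts in which each kidney was drawn independently, with no mouse effect. Such counts cannot show how the unpaired fit does on paired kidneys.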

Additional observations from a re-analysis of the deposited data

How the results depend on the processing

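For coarctation right minus left, the count of genes past the threshold went from 0 to 112 without the low-count filter (1 of the 50 genes, Derl3), 76 with DESeq2 (2 of the 50, Derl3 and Fkbp11), 6 with the mouse as a random effect in limma-voom and 5 with the replicate block (0 of the 50). The other comparisons went from 0 to 19 without the filter and 28 with DESeq2 (sham right minus left), 63 and 34 (difference of the side changes), 67 and 39 (left kidney, coarctation minus sham), and 70 and 57 (right kidney), with 0 of the 50 genes in each. With library size alone the median log2 change of the 50 genes was -0.241, 0.0558, -0.349, 0.172 and -0.226 in these 5 comparisons, in the same order. The cause of these shifts was not tested.

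Leaving out 1 mouse or 1 library at a time, with and without the replicate block, gave 0 to 7 genes past the threshold in coarctation right minus left (4 without mouse 3 and no block), 0 to 2 in the difference of the side changes and 0 to 3 in the right kidney, and 0 in the other 2 comparisons and among the 50 genes. The median of the 50 genes ranged from -0.458 to -0.258 in coarctation right minus left (-0.431 without mouse 3 and no block; -0.285 with the replicate block and without mouse 2), -0.239 to 0.286 in sham (0.0557 with the block and without sham mouse 2), -0.781 to -0.224 in the difference (-0.395 and -0.329 with the block and without coarctation mouse 1 or 2), 0.281 to 0.657 in the left kidney and -0.272 to 0.174 in the right kidney. Sec31a in sham ranged from -0.083 to 0.93 and changed sign in 2 settings, and no other gene given by name and tested in these settings did. Over all settings, Dnajc3 ranged from 0.479 to 1.48 and Derl3 from 2.82 to 6.06 in the left kidney, Derl1 from -0.731 to -0.246 in the right kidney, and Sec61b from -0.867 to -0.278 in coarctation right minus left. Depth limits Derl3, whose right coarctation kidneys had 0 to 8.7 estimated counts.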
